A study of Caenorhabditis elegans with 6 samples.

Results

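Vitellogenins are the yolk precursor proteins of C. elegans, and rme-2 encodes the receptor that brings yolk into the oocyte. The genes described here were chosen by name, as vit-1 to vit-6 and rme-2. Of these 7 genes, 6 were analyzed among the 16391 genes of the table, and vit-3 was not analyzed here. RNA-seq had been performed on whole worms of the wild-type strain N2 that had reached L4, the last larval stage. Of the libraries, 3 were of worms grown at 25°C and 3 of worms grown at 15°C. All worms were fed E. coli OP50, and eggs for the colder cultures were laid earlier, so that both temperatures could be collected at a matched developmental stage. The labels do not say whether the 3 libraries of a temperature came from separate cultures, so the p-values measure only the spread between these libraries, which may be technical. RNA of whole worms pools all tissues, so fewer cells of a type and less RNA per cell cannot be told apart.

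In hermaphrodites, the vitellogenin genes are transcribed in the intestine, where they are switched on around the passage from the last larval stage to the adult. The proteins are related to apolipoprotein B of vertebrate blood. They are secreted into the body cavity with lipid and cross to the gonad, where RME-2, a member of the LDL receptor family on the oocyte surface, takes them up by endocytosis. The yolk pathway therefore joins a somatic supplier, the intestine, to a germline consumer, the growing oocyte. The proteins of vit-1 to vit-5 form the larger yolk polypeptides. The product of vit-6 is cleaved into a pair of smaller polypeptides.

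In the WBcel235 annotation, vit-1 lies on chromosome X from 7727889 to 7733168 and vit-2 on chromosome X from 5101042 to 5106169, both on the plus strand. On the same chromosome, vit-4 lies on the minus strand from 3558769 to 3563965 and vit-5 on the plus strand from 3403471 to 3408603. The annotation places vit-3 3389 bases from vit-4. vit-6 stands apart on chromosome IV, from 8261157 to 8266459, and rme-2 lies on the same chromosome from 5470026 to 5473174, both on the plus strand. The exonic lengths of the 5 vitellogenin genes analyzed are close to each other, from 4870 bases in vit-5 to 5088 bases in vit-1, whereas that of rme-2 is 2867 bases. vit-3, vit-4 and vit-5 are close paralogs, as are vit-1 and vit-2, so reads that fit several of them had to be divided by the authors' estimation and the single values are uncertain to that extent. A protein-coding gene on the other strand, C42D8.9, overlaps vit-2, and a non-coding RNA gene overlaps vit-4. The kit keeps strand, but the sources used here do not say whether the estimation made use of it.

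The values are FPKM, fragments scaled by transcript length and by the mapped fragments of the library, so levels can be compared between genes. Depth is unknown. The FPKM of a library summed to between 2663992 and 2776526 at 25°C and to between 2865856 and 3313082 at 15°C. A pair of libraries stood apart in a way that followed transcript length. Among 64 other tested genes with 4800 to 5200 exonic bases, the range of the vitellogenins, the median ratio of a library to the mean of the other 2 of its temperature was 0.690 in 15°C replicate 2 and 1.36 in 15°C replicate 3. In 2937 genes with 500 to 1000 exonic bases, these ratios were 1.15 and 0.866. The same ratios lay between 0.862 and 1.15 for the long genes at 25°C. Long transcripts were thus low in 15°C replicate 2 and high in 15°C replicate 3, and the vitellogenins are long transcripts. Differences were tested on log2(FPKM + 0.5) with limma, over 12996 genes that averaged 1 FPKM or more across the libraries. A gene was called if its log2 fold change exceeded 1 in size and its adjusted p was below 0.01. All 6 genes passed this filter and none was at 0 in any library.

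At 25°C, all 6 genes were lower than at 15°C in every library, and 4 of them were called: rme-2, vit-4, vit-5 and vit-1. The number called was 2 without 15°C replicate 1, and 0 with limma's treat test, which asks for a change beyond 2-fold. Among all tested genes, 5.59% were called lower at 25°C. In none of the 6 genes did the libraries of the temperatures overlap, and 28.7% of all tested genes were lower at 25°C without overlap (54.7% in either direction). The most abundant vitellogenins, vit-2 and vit-6, were 1.59-fold and 1.85-fold lower on the means and were not called.

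vit-5, which encodes a large yolk polypeptide, was at 182, 226 and 187 FPKM in the libraries at 25°C, against 544, 490 and 844 FPKM in those at 15°C. Even the lowest 15°C library was more than the highest 25°C library, and 15°C replicate 3 was far above the other 2. The log2 fold change was -1.62 with a standard error of 0.21 (adjusted p = 0.0017 from limma with Benjamini-Hochberg adjustment), a mean of 31.7% of that at 15°C. vit-4, which encodes a closely related polypeptide, was at 124, 137 and 119 FPKM at 25°C, against 366, 321 and 501 FPKM at 15°C. Its mean of 127 ± 9.29 FPKM at 25°C was 32.1% of the 396 ± 93.6 FPKM at 15°C (SD, n = 3 for each). The log2 fold change of vit-4 was -1.61 (standard error 0.17, adjusted p = 0.00080 from limma). vit-4 and vit-5 therefore had nearly the same fold change at different levels.

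vit-1, the vitellogenin gene with the lowest level, was at 65.9, 76.5 and 62.4 FPKM at 25°C, against 171, 123 and 226 FPKM at 15°C. The libraries at 25°C lay close together, while those at 15°C were spread widely, with replicate 2 lowest. Its log2 fold change was -1.30 with a standard error of 0.22 (adjusted p = 0.0044 from limma). vit-1 was no longer called when 25°C replicate 1 (-1.28), 25°C replicate 3 (-1.24) or 15°C replicate 1 (-1.29) was left out, nor after scaling to TPM (-1.11) or to equal library sums (-1.12).

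vit-2 and vit-6 were the highest vitellogenins at both temperatures. vit-2 was at 616, 748 and 614 FPKM at 25°C, against 851, 872 and 1424 FPKM at 15°C. The gap between the groups was small, with 748 FPKM in the highest library at 25°C and 851 FPKM in the lowest at 15°C. The log2 fold change was -0.63 with a standard error of 0.21 (adjusted p = 0.048 from limma), short of both thresholds, and it was -0.39 without 15°C replicate 3. vit-6, the source of the smaller yolk polypeptides, was at 604, 722 and 585 FPKM at 25°C, against 950, 954 and 1632 FPKM at 15°C. Replicates 1 and 2 at 15°C were almost equal, and replicate 3 was 1.71 times their mean. The log2 fold change of vit-6 was -0.84 (standard error 0.22, adjusted p = 0.021 from limma), and it was -0.59 without 15°C replicate 3. On an adjusted p under 0.05 alone, without the fold threshold, all 6 genes would be lower at 25°C, as were 21.3% of all tested genes. vit-2 passed that mark narrowly and missed it under most alternatives, with an adjusted p from limma of 0.059 without the filter, 0.057 with median-ratio scaling, 0.18 with TPM and up to 0.13 with 1 library left out. vit-6 missed it with TPM (0.075), equal sums (0.079), and without 25°C replicate 1 (0.065) or 25°C replicate 3 (0.070).

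rme-2, the oocyte yolk receptor, had the largest difference of the 6 genes. It was at 19.1, 44.4 and 31.0 FPKM in the libraries at 25°C, against 128, 112 and 158 FPKM in those at 15°C. Its mean at 25°C, 31.5 ± 12.7 FPKM, was 23.7% of the 133 ± 23.1 FPKM at 15°C (SD, n = 3 for each). The log2 fold change was -2.12 with a standard error of 0.29 (adjusted p = 0.0021 from limma), and 1.20% of all tested genes had a lower one. The adjusted p was 0.010 from limma without 15°C replicate 1, where the call was lost at a log2 fold change of -2.14. An exact permutation test (two-sided) on each of the 6 genes returned p = 0.10, its lower limit with 3 libraries a side.

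**Figure D1:**
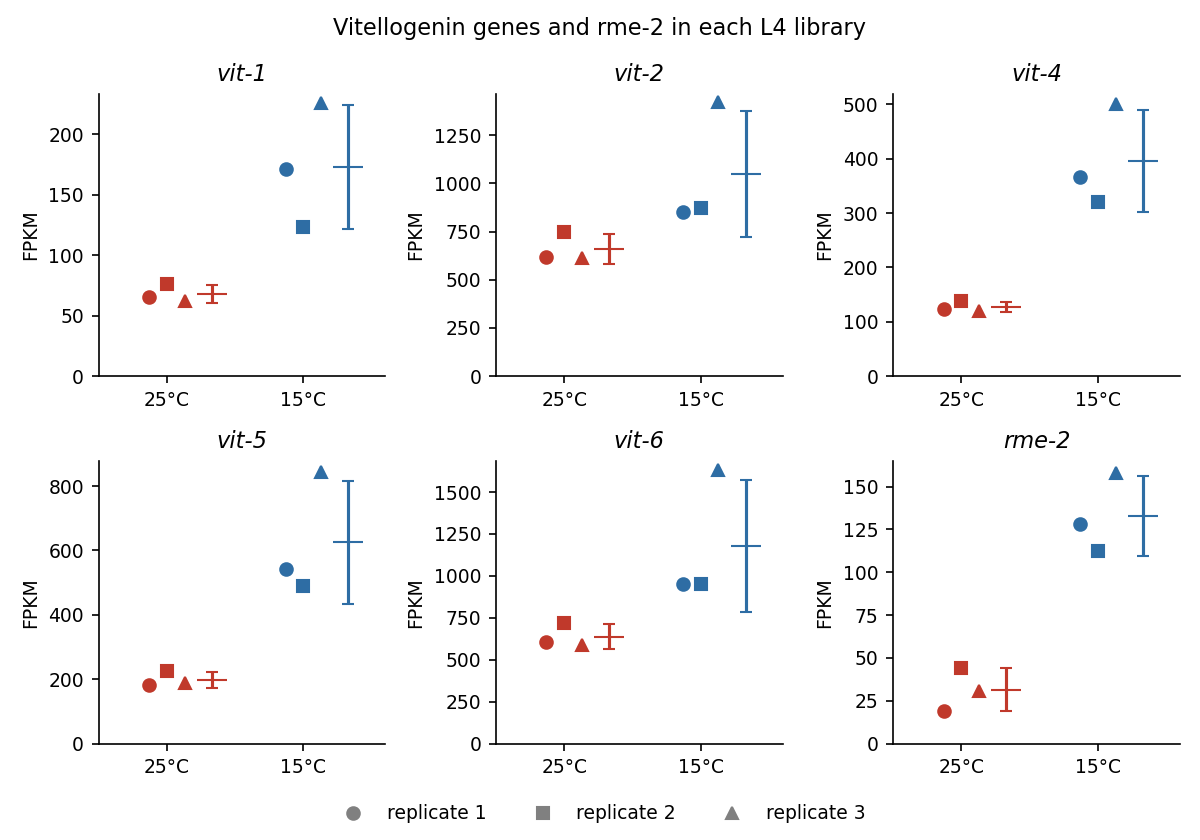
FPKM of the 5 vitellogenin genes analyzed and of rme-2 in each library at 25°C (red) and at 15°C (blue), with a marker shape for each replicate and the mean ± SD (n = 3) beside the points; each axis starts at 0. The libraries of the temperatures do not overlap in any of the 6 genes, and 15°C replicate 3 is the highest library in each.

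The levels kept nearly the same order at both temperatures. At 25°C, vit-2 averaged 660 ± 77.0 FPKM and vit-6 637 ± 74.1 FPKM (SD, n = 3), and vit-2 was slightly above vit-6 in each library. vit-5 followed at 198 ± 24.1 FPKM, then vit-4 at 127 ± 9.29, vit-1 at 68.3 ± 7.33 and rme-2 at 31.5 ± 12.7 FPKM. At 15°C, vit-6 came first at 1179 ± 393 FPKM and vit-2 next at 1049 ± 325 FPKM, with vit-6 above vit-2 in each library. vit-5 was at 626 ± 191 and vit-4 at 396 ± 93.6 FPKM, with ranges that overlapped between libraries and vit-5 higher in each one. vit-1 at 173 ± 51.3 and rme-2 at 133 ± 23.1 FPKM came last, again with overlapping ranges and vit-1 higher in each library. On the means, 507 genes were higher than the highest vitellogenin at 25°C and 330 were higher at 15°C. The summed FPKM of the 5 genes was 1592, 1910 and 1568 at 25°C, against 2882, 2760 and 4626 at 15°C, and made up 0.0621% ± 0.0070 and 0.112% ± 0.043 of the library sums (SD, n = 3 for each).

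In these libraries the differences between temperatures were unequal among the vitellogenins. Because the 5 genes have nearly the same exonic length, each was compared with vit-6 in the same library, so that the length trend between libraries falls out of the ratio. vit-5 was at 0.301, 0.313 and 0.320 of vit-6 at 25°C, against 0.572, 0.514 and 0.517 at 15°C. The libraries of a temperature lay close together, and the spread that 15°C replicate 3 gave to the single genes was gone. The difference of the log2 ratio, 25°C minus 15°C, was -0.78 for vit-5. vit-4 was at 0.206, 0.190 and 0.204 of vit-6 at 25°C, against 0.385, 0.336 and 0.307 at 15°C, a difference of -0.77. For vit-1 the ratios were 0.109, 0.106 and 0.107 at 25°C and 0.180, 0.129 and 0.138 at 15°C, a difference of -0.46. vit-2 went the other way. It was at 1.02, 1.04 and 1.05 of vit-6 at 25°C and at 0.896, 0.914 and 0.873 at 15°C, a difference of 0.21. rme-2 was at 0.0317, 0.0615 and 0.0529 of vit-6 at 25°C and at 0.135, 0.118 and 0.0968 at 15°C, a difference of -1.28, or -1.36 after the correction for exonic length described further on, since its transcript is shorter. None of the 5 ratios, which share vit-6 as their denominator, overlapped between the temperatures. How often the ratio of any tested gene to vit-6 would not overlap was not computed. By an exact two-sided permutation test each had p = 0.10, before and after adjustment over the 5 ratios, again the lower limit. As shares of the summed FPKM of the 5 genes, vit-2 and vit-6 together made up 76.7% ± 0.26 at 25°C and 64.9% ± 2.1 at 15°C (SD, n = 3 for each). vit-5 made up 11.7% ± 0.27 at 25°C and 18.3% ± 0.55 at 15°C, and vit-4 7.54% ± 0.31 and 11.7% ± 0.94. For vit-4 and vit-5, how reads shared with vit-3 were assigned was not tested.

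**Figure D2:**
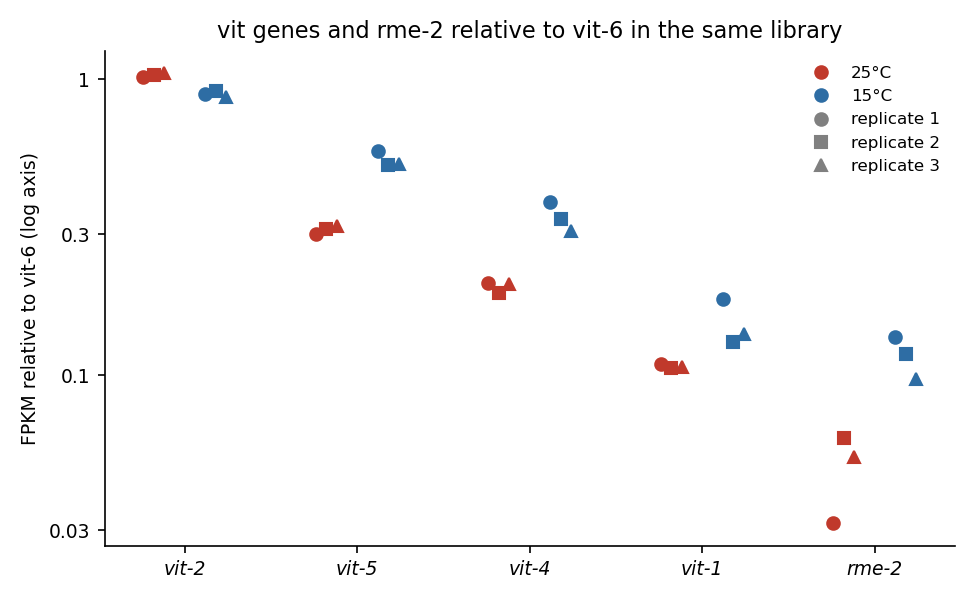
FPKM of vit-2, vit-5, vit-4, vit-1 and rme-2 divided by the FPKM of vit-6 in the same library, on a log axis, at 25°C (red, left) and at 15°C (blue, right), with a marker shape for each replicate. vit-2 lies above its 15°C values at 25°C and the other genes lie below theirs, without overlap between the temperatures.

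Within a temperature, rme-2 and the 5 vitellogenins were highest in the same library, replicate 2 at 25°C and replicate 3 at 15°C, but to different extents. In 15°C replicate 3 the FPKM of the 5 vitellogenins was 1.46 to 1.71 times the mean of the other 2 libraries. rme-2 was 1.31 times higher there, and the median ratio was 1.21 for 24 oocyte and eggshell genes and 1.06 for 13 other intestinal genes. At 25°C it was rme-2 that varied most. There the vitellogenins of replicate 1 were at 0.881 to 0.967 of the other 2 libraries, whereas rme-2 was at 0.507 and the oocyte and eggshell genes had a median ratio of 0.665. rme-2 was highest in 25°C replicate 2, at 1.77 times the mean of the other 2, where the vitellogenins were at 1.13 to 1.23 and the median of the oocyte and eggshell genes was 1.38. Other lists ran the same way in these libraries, with medians in replicates 1 and 2 of 0.847 and 1.17 for muscle genes, 0.720 and 1.18 for adult-onset collagens and 0.862 and 1.15 for genes of vitellogenin length. The median over all tested genes stayed between 0.975 and 1.02 in every library. At 15°C, the vitellogenins were high in the same library as other genes of their length, whose median ratio there was 1.36. In 15°C replicate 1, the median of genes of that length was 1.03, while the vitellogenins ranged from 0.735 in vit-6 to 0.983 in vit-1.

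A correction for exonic length, chosen after the data were seen, was fitted in each library to deviations from the mean of all 6 libraries. It therefore also takes out a length trend that differs between the temperatures. With it, the log2 fold changes moved toward 0. They became -1.38 for vit-5, -1.37 for vit-4, -1.06 for vit-1, -0.60 for vit-6, -0.39 for vit-2 and -1.95 for rme-2. The same 4 genes were called, of 676 called lower in all with the correction and 726 without it. These totals are over different sets, since only 11852 of the 12996 tested genes had an exonic length and the others were left out. The libraries of the temperatures still did not overlap in any of the 6. That share was not computed over all genes with the correction. The other 64 tested genes of vitellogenin length had a median log2 fold change of -0.33 without the correction, and 6.25% of them were called lower, against a median of -0.032 for all tested genes.

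**Figure D3:**
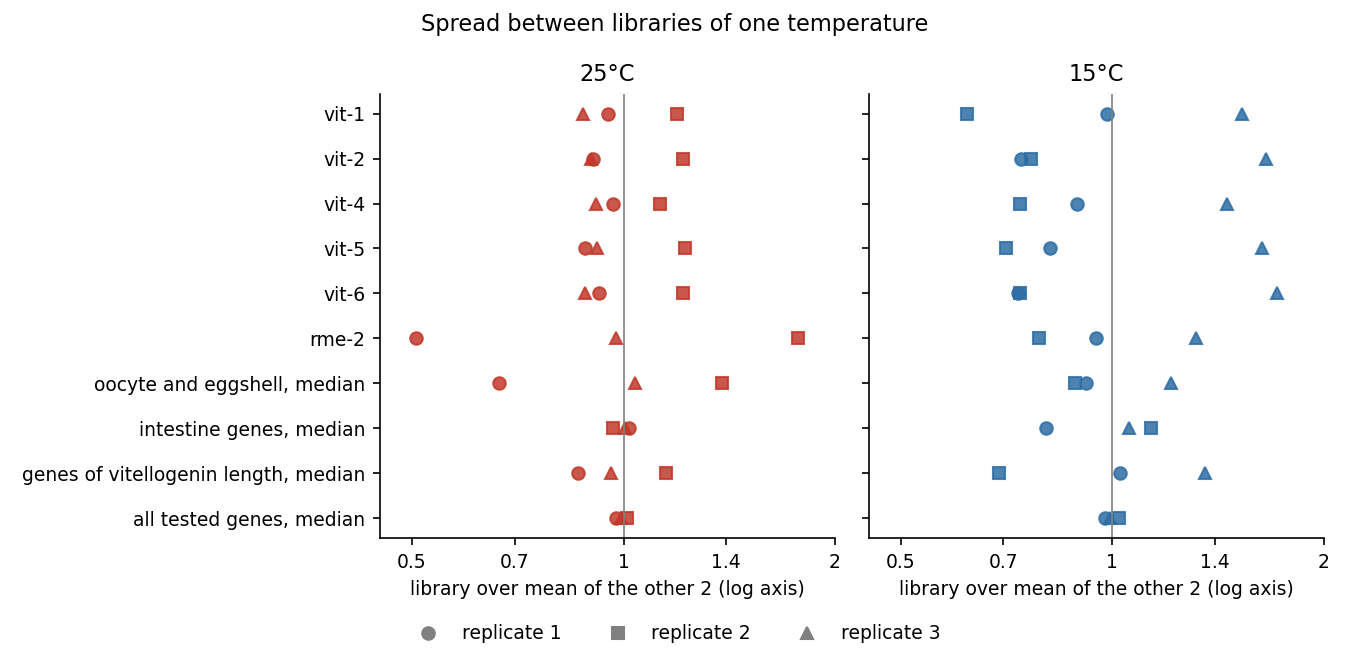
Ratio of each library to the mean of the other 2 of its temperature, on a log axis, for the vitellogenins, rme-2 and the medians of 24 oocyte and eggshell genes, 13 intestinal genes, 64 genes of vitellogenin length and all 12996 tested genes, at 25°C (left) and 15°C (right). At 15°C the vitellogenins are spread widely with replicate 3 highest, and at 25°C rme-2 is spread most, with replicate 1 lowest and replicate 2 highest.

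The genes around yolk uptake were examined next. The lists were drawn up by gene name, but with earlier results of these data known. Their counts are set against all tested genes, of which 5.59% were called lower and 6.96% higher. Of 24 tested oocyte and eggshell genes, 20 were called lower by limma and 0 higher. An unadjusted p below 0.05 was reached by 22 of them, all lower, and limma's treat test against a 2-fold change called 0, with 16 at an unadjusted p below 0.05. Their summed FPKM ranged from 1629 to 2409 at 25°C and from 4938 to 5946 at 15°C. The median log2 fold change was -1.65, and rme-2 at -2.12 lay within their range. The largest fall was that of cpg-1, a chondroitin proteoglycan of the eggshell, which averaged 66.7 ± 28.7 FPKM at 25°C, against 318 ± 47.3 FPKM at 15°C (SD, n = 3 per temperature). Its log2 fold change was -2.33, beside -2.19 for cbd-1, a chitin-binding eggshell protein, and -2.15 for cpg-2, another chondroitin proteoglycan. Genes for RNA-binding proteins of the oocyte and early embryo were also among those called, with puf-3 (-1.85), mex-3 (-1.79), pos-1 (-1.72), mex-6 (-1.72), spn-4 (-1.70), mex-5 (-1.69), oma-1 (-1.67) and puf-11 (-1.54). The others called were lin-41, egg-1, egg-2, egg-3, perm-2, perm-4, cpg-3, mei-1 and nos-2, with log2 fold changes between -1.67 and -1.16. Those not called were cav-1 (-2.06, adjusted p = 0.023 from limma), oma-2 (-0.88), puf-5 (-0.45) and chs-1 (-0.22). The number called lower was 12 without 15°C replicate 1 and 11 without 15°C replicate 3.

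Of 4 tested genes of the LDL receptor family other than rme-2, 2 were called lower and 0 higher by limma, and treat called 0. The number was 1 without 15°C replicate 1 and 1 without 15°C replicate 3. egg-1 and egg-2, which the oocyte list also holds, encode LDL receptor family proteins of the oocyte surface that act in fertilization, and both were called, with log2 fold changes of -1.61 and -1.50. lrp-1, the megalin homolog of the epidermis, was at 0.850, 0.931 and 0.825 FPKM at 25°C, against 1.51, 0.589 and 2.26 FPKM at 15°C, with overlapping libraries. lrp-2, a related receptor that the list of regulators also holds, was between 1.65 and 2.63 FPKM at 25°C and between 1.69 and 4.06 FPKM at 15°C, and was not called either.

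Of 14 tested genes for the endocytic machinery that carries RME-2, which includes clathrin, the AP2 adaptor, dynamin, Rab proteins and the RME proteins, limma called 0 in either direction, as did treat. With an unadjusted p below 0.05 there were 3 lower and 0 higher, and 1 was called lower without 25°C replicate 1 or at an adjusted p under 0.05. Their median log2 fold change was -0.19, but 0.0049 on the TPM scale, where that of all tested genes was 0.12. The largest change was that of cav-1, a caveolin of the germline, whose mean was 1.03 ± 1.16 FPKM at 25°C, against 4.93 ± 1.86 FPKM at 15°C (SD, n = 3 per temperature). The log2 fold change of cav-1, -2.06, missed the threshold (adjusted p = 0.023 from limma). The oocyte list also holds cav-1.

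On the side of yolk production, 6 genes for secretion and processing were tested. limma called 1 of them lower and 0 higher, treat called 0, and 2 higher and 1 lower had an unadjusted p below 0.05. The gene called was cpl-1, a cathepsin L protease that acts on yolk in the embryo, which averaged 384 ± 9.76 FPKM at 25°C, against 993 ± 85.5 FPKM at 15°C (SD, n = 3 per temperature). cpl-1 had a log2 fold change of -1.37 with a standard error of 0.10 (adjusted p = 0.00024 from limma). The level of dsc-4, which encodes the microsomal triglyceride transfer protein that loads lipoproteins with lipid, was higher at 25°C in every library and missed both thresholds, with 54.5 ± 3.65 FPKM at 25°C, against 31.6 ± 7.25 FPKM at 15°C (SD, n = 3 per temperature; log2 fold change 0.80, adjusted p = 0.011 from limma). It was named after its value was seen.

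Of 13 tested regulators of vitellogenin transcription, limma called 1 higher and 0 lower, and treat called 0. An unadjusted p below 0.05 was reached by 2 in each direction. The median log2 fold change was -0.089, but 0.12 on the TPM scale and 0.084 with equal sums. Over all tested genes the median moved as well, from -0.032 to 0.12 and 0.15. The gene called higher was elt-7, a GATA factor of the intestine, whose mean was 39.6 ± 1.72 FPKM at 25°C, against 18.2 ± 2.6 FPKM at 15°C (SD, n = 3 per temperature). Its log2 fold change was 1.11, and it was not called when 25°C replicate 3 or 15°C replicate 1 was left out. Other regulators were named after their values were seen. unc-62 and ceh-60, homeodomain factors that activate vitellogenin genes, had log2 fold changes of 0.10 and 0.19, and elt-2, the main intestinal GATA factor, of -0.053. daf-16, the FOXO factor under insulin signaling that lowers vitellogenin expression, had 28.7 ± 1.63 FPKM at 25°C, against 49.5 ± 8.78 FPKM at 15°C (SD, n = 3 per temperature). Its log2 fold change of -0.76 (adjusted p = 0.0077 from limma) stayed short of the fold threshold.

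Markers of the tissues and of stage were set beside these results. Of 13 tested intestinal genes other than vitellogenins, 2 were called lower and 1 higher, with a median log2 fold change of -0.14, but 0.048 on the TPM scale and with equal sums. Those lower were fat-7, a stearoyl-CoA desaturase (-1.98), and cpr-1, a gut cathepsin B protease (-1.96). The one higher was elt-7, which, like elt-2, is also on the list of regulators. The number called higher was 2 on the TPM scale, with equal sums, with the length correction or without 15°C replicate 3. It was 0 when 25°C replicate 3 or 15°C replicate 1 was left out. treat called 1 lower and 0 higher. The summed FPKM of the intestinal list ranged from 9369 to 9612 at 25°C and from 9282 to 11832 at 15°C. Over all tested genes the median log2 fold change was -0.032, but 0.12 on the TPM scale and 0.15 with equal sums. Of 10 sperm genes, limma called 0 in either direction, and 3 higher and 1 lower had an unadjusted p below 0.05. Their median log2 fold change was 0.029, but 0.24 on the TPM scale and 0.21 with equal sums, and the largest was that of spe-42 (0.78). Their sum was 713 to 756 FPKM at 25°C and 673 to 769 FPKM at 15°C. Of 7 body wall muscle genes limma also called 0, with 2 lower and 0 higher at the unadjusted level and the largest change in lev-11 (-0.39). Of 4 tested adult-onset collagens of the hypodermis limma called 0, with 1 lower and 0 higher at the unadjusted level. Their median log2 fold change was 0.14, and col-7 (0.12), col-62 (0.34) and bli-2 (0.16), none of them called, were above 0. The one below 0 was col-19, with 719, 1297 and 1008 FPKM at 25°C and 1467, 1601 and 1699 FPKM at 15°C, and it had the largest change of these collagens, a log2 fold change of -0.70 (adjusted p = 0.033 from limma). The treat test called 0 in the sperm, muscle and collagen lists. In 25°C replicate 1, where rme-2 and the oocyte genes were lowest, col-19 was lowest as well. The part of exact stage and of the number of oocytes in the differences of rme-2 and the vitellogenins was not tested.

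**Figure D4:**
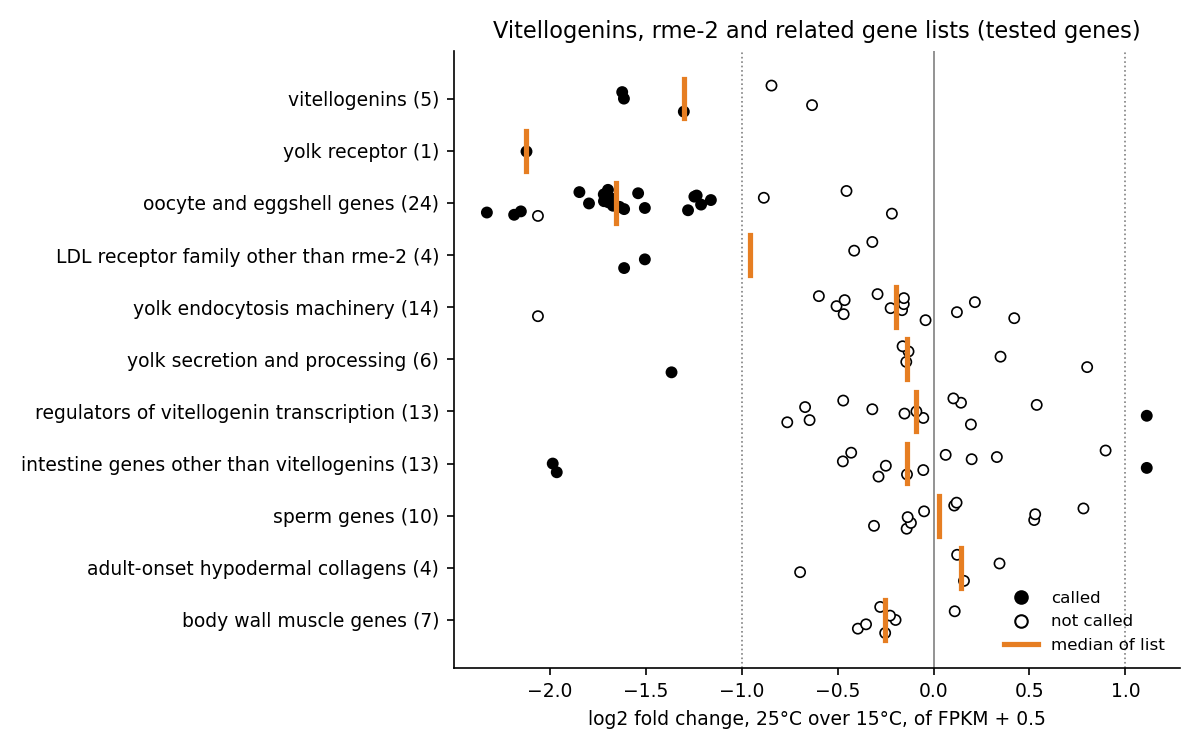
Log2 fold change, 25°C over 15°C, of FPKM + 0.5 for each tested gene of the lists, with filled points for genes called by limma, open points for the others and an orange bar at the median; the number of tested genes is in brackets, and dotted lines mark a log2 fold change of 1 in each direction. rme-2 lies among the oocyte and eggshell genes, of which 20 of 24 were called, while the sperm, muscle and endocytosis lists have 0 called.

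The genes whose values ran most like those of a gene over the 6 libraries were looked up by Pearson's r of log2(FPKM + 0.5), as a description, since 6 points that fall into 2 temperatures give high values easily. For rme-2 these were Y79H2A.3 (r = 0.9994), cpg-4 (r = 0.9994), a chondroitin proteoglycan gene, and icp-1 (r = 0.9993), an INCENP homolog of the chromosomal passenger complex, and 1330 tested genes had an r above 0.95. cpg-4 was at 9.51, 15.6 and 12.4 FPKM at 25°C, against 27.6, 26.8 and 32.5 FPKM at 15°C. The median r to rme-2 was 0.993 for the oocyte and eggshell genes, 0.82 for the muscle genes and 0.39 for the intestinal genes, and r to rme-2 was 0.96 for vit-4 and for vit-5. To vit-2, the median r was likewise higher for the oocyte and eggshell genes (0.85) than for the intestinal genes (0.46). It was 0.75 for the muscle genes. For vit-2 the most alike were tkt-1 (r = 0.994), a transketolase, pqn-15 (r = 0.992) and F41C3.2 (r = 0.991), and 105 tested genes had an r above 0.95. tkt-1 was at 256, 273 and 249 FPKM at 25°C, against 307, 305 and 396 FPKM at 15°C, a log2 fold change of -0.36. vit-2 ran closest to vit-6 among the vitellogenins (r = 0.993) and less closely with rme-2 (r = 0.855), and all these points share the libraries and their length trend.

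**Figure D5:**
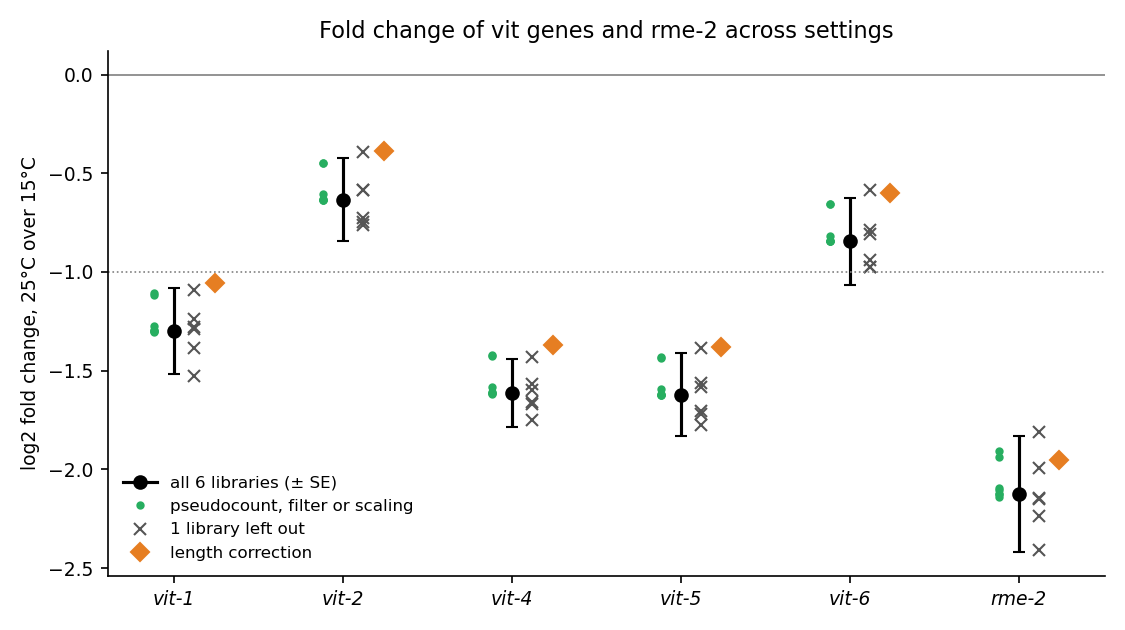
Log2 fold change, 25°C over 15°C, of the 5 vitellogenins and rme-2 with all 6 libraries (black, ± standard error), with other pseudocounts, filters or scaling (green), with 1 library left out (crosses) and with the correction for exonic length (orange); the dotted line marks a log2 fold change of -1. All values are below 0. Those of vit-2 and vit-6 lie above the dotted line under every setting, and those of vit-1, vit-4, vit-5 and rme-2 lie below it.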

How the data were processed

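RNA of whole N2 worms at L4 was sequenced by the authors from stranded mRNA libraries. Per the labels and methods, reads were aligned to WBcel235 with TopHat2 2.0.6 and passed to Cufflinks. The authors deposited 1 table of FPKM, without counts, with a value for each gene in each library. Any filter they applied first is unknown here. Values do not step by whole reads (the lowest nonzero one is 9.8e-258), so depth is unknown, no counting interval can be given, and precision rests on the number of libraries, 3 per temperature as labelled.

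Because FPKM are not counts, limma (version 3.58.1, R 4.3.3) was fitted to the log2 values with an intensity trend and no covariate, with Benjamini-Hochberg adjustment over all tested genes, at the study's thresholds. The fit was first tested on simulated data. scipy 1.17.1 gave the exact permutation tests, and Python 3.11.15 with pandas 2.3.3 the tables. Genes were matched by symbol, and loci and exonic lengths come from the Ensembl annotation of WBcel235. Alternatives were other pseudocounts, filters, scalings, tests, a replicate block and each library left out. A correction for exonic length by lowess (span 0.3, 11852 genes) was added after the data were seen. It was fitted in each library to deviations from the mean of all 6 libraries.

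The genes and lists were chosen with earlier results of these data known. The text names the 6 genes, each list's called genes and largest change, and the 3 genes most like vit-2 and rme-2 in pattern. The other genes named, oma-2, puf-5, chs-1, lrp-1, lrp-2, elt-2, unc-62, ceh-60, daf-16, dsc-4, col-7, col-62 and bli-2, were chosen after their values were seen. rict-1, sar-1, rab-10, spe-10, erm-1 and unc-54, also on the lists, were not analyzed here.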

Additional observations from a re-analysis of the deposited data

How the results depend on the processing

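Each of the 6 genes kept a log2 fold change below 0 under all 18 alternatives. These were other pseudocounts, filters, scalings and tests, a replicate block, each library left out in turn, and the correction for exonic length. That correction was added after the data were seen. For most of the 18 the sign could not change. The filters, tests and block leave the fold change of a gene as it is. Every 15°C value of these genes exceeded every 25°C value, so another pseudocount or a library left out could not reverse it. The scalings were also too small to reverse it. Mean library sums differed 1.14-fold and the median-ratio factors ranged from 0.994 to 1.02, while vit-2, with the smallest difference of the 6 genes, differed 1.59-fold. The sign held under the length correction as well. vit-2 and vit-6 were called under none of the 18 alternatives. The treat test against a 2-fold change called none of the 6 genes (0, against 3 at an unadjusted p under 0.05), with vit-1 at -1.30, vit-4 at -1.61, vit-5 at -1.62 and rme-2 at -2.12. TPM and equal sums both divide by the library sum and differ only in unit, and so in where the pseudocount and the filter act. Scaling to TPM (-1.11) or to equal sums (-1.12) also ended the call of vit-1, and the median over all genes was then 0.12 and 0.15, against -0.032 unscaled. Relative to that median, vit-1 was at -1.23 and -1.26, and at -1.27 without rescaling. With 1 library left out, the log2 fold change ranged from -1.53 to -1.09 for vit-1 and from -2.41 to -1.81 for rme-2, and 2 to 4 of the 6 genes were called. Over the same fits, between 904 and 1617 genes were called in all, between 320 and 826 lower and between 561 and 855 higher. Against 1630 genes called with all libraries, treat called 163, with 26 lower and 137 higher. The number lower was 726, and 353 with TPM and 421 with equal sums. On the TPM scale the filter at 1 removes more genes, so fewer were tested there, and the median of a list on that scale can rest on fewer genes.

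Libraries with the same replicate number did not deviate together over the tested genes (correlations of -0.035, -0.10 and -0.050). Those with different numbers had correlations from -0.12 to 0.16, and a shared batch was not tested. With the replicate number as a block, 1003 genes were called, with 406 lower and 597 higher. vit-1 was not called under the block, with a log2 fold change of -1.30 and an adjusted p of 0.017 from limma, and the other 5 genes kept their call or its absence. Of 486 values of the lists under the alternatives, 451 moved by less than the spread between libraries or stayed within 1.5 times the count, and 35 moved further. Many of the 451 could not move, since another p threshold, no trend, the block and treat leave the median of a list as it is. Many counts were also 0 under every setting. The 451 are therefore no measure of how stable the lists were. The unknown depth and 3 libraries per temperature limit all of these values.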

Other observations

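The correction for exonic length, chosen after the data were seen, also changed the spread between the libraries at 15°C. vit-4 was then at 146, 136 and 132 at 25°C and at 331, 360 and 383 at 15°C, in units of corrected FPKM, with 15°C replicate 3 at 1.11 times the mean of the other 2 in place of 1.46 times. For vit-6 that ratio was 1.29 in place of 1.71, and for vit-1 it was 1.17 in place of 1.53. In 15°C replicate 1 the ratios changed little, with vit-6 at 0.741 in place of 0.735 and vit-1 at 0.997 in place of 0.983. rme-2 kept its spread at 25°C, with 21.7, 44.0 and 32.9 corrected FPKM. The standard error of the log2 fold change of vit-4 became 0.093 in place of 0.17.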
